A study of Drosophila melanogaster with 17 samples.

Results

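The genes described here make the machinery that packages nuclear RNA and hands it to the nuclear pore. They are Hel25E, which encodes the RNA helicase UAP56, the THO subunit genes tho2, Hpr1, thoc5, thoc6 and thoc7, and the export receptor genes sbr and Nxt1. They are a list of names, and all 8 were found under these names among 12505 genes of the RNA table and 13797 genes of the RNA polymerase II (Pol2) table. The samples were Drosophila melanogaster ovaries from females 2 to 4 days old, with about 30 females dissected per replicate. RNA-seq and Pol2 ChIP-seq each had 3 libraries of cuff mutant ovaries (genotype cuff) and 3 of wild-type ovaries (genotype wt). The labels name no allele and no background strain of the mutant. Each gene table gives 1 value per genotype, called the authors' mean below, so no SD is printed. The spread between libraries enters only through the p-value in the authors' deposited table. Per the file headers, that p-value rests on dispersions from the parametric fit alone, so it may not measure a gene's own spread between libraries. Among genes of like RNA level, however, the p-value did not follow fold alone. Around thoc5 a 1.32-fold fall passed the threshold given below, while a 1.83-fold fall did not. How far the p-value reflects a gene's own spread was not tested.

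THO is a multi-subunit complex that binds nascent RNA during transcription. It recruits the DEAD-box helicase UAP56, and together with adaptor proteins they form the TREX complex. UAP56 loads adaptors such as Aly (Ref1 in flies) onto the RNA, which is then passed to the receptor NXF1 (sbr, small bristles) with its partner NXT1 (Nxt1), and the receptor carries the RNA through the pore. In the fly germline some of these factors also serve the piRNA pathway. UAP56 lies at the Rhino-bound clusters from which unspliced piRNA precursors are transcribed, and thoc5 and thoc7 are needed for normal piRNA production from clusters. Cutoff (Cuff) works with Rhino and Deadlock at those clusters, and the precursors leave the nucleus through a variant receptor, Nxf3, with Nxt1 and Bootlegger. The comparison of cuff mutant with wild-type ovaries therefore shows whether the levels of the THO and export genes differ when Cuff is disrupted.

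None of the 8 genes changed in RNA or in Pol2 signal by the deposited p of 0.05 or less that is used as the threshold throughout. For comparison, 9.24% of all genes passed in RNA and 1.46% in Pol2. The smallest p of the 8 in the authors' deposited table was 0.1 for RNA, at Nxt1, and 0.7 for Pol2, also at Nxt1. These p-values come from the authors' DESeq run. Adjusting the values of the authors' deposited table once more over all genes likewise left 0 of 8 in both assays. By that measure only 351 of 12505 genes passed in RNA and 49 of 13797 in Pol2. In RNA the authors' mean was lower in the mutant for 6 genes and higher for 2. In Pol2 it was lower for 5 and higher for 3. These counts depend on scaling: with changes centred on genes of like level, 3 were lower and 5 higher in RNA, and in Pol2 the number lower was 7 when centred on all genes but 2 when both genotypes were scaled to the same total.

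**Figure D1:**
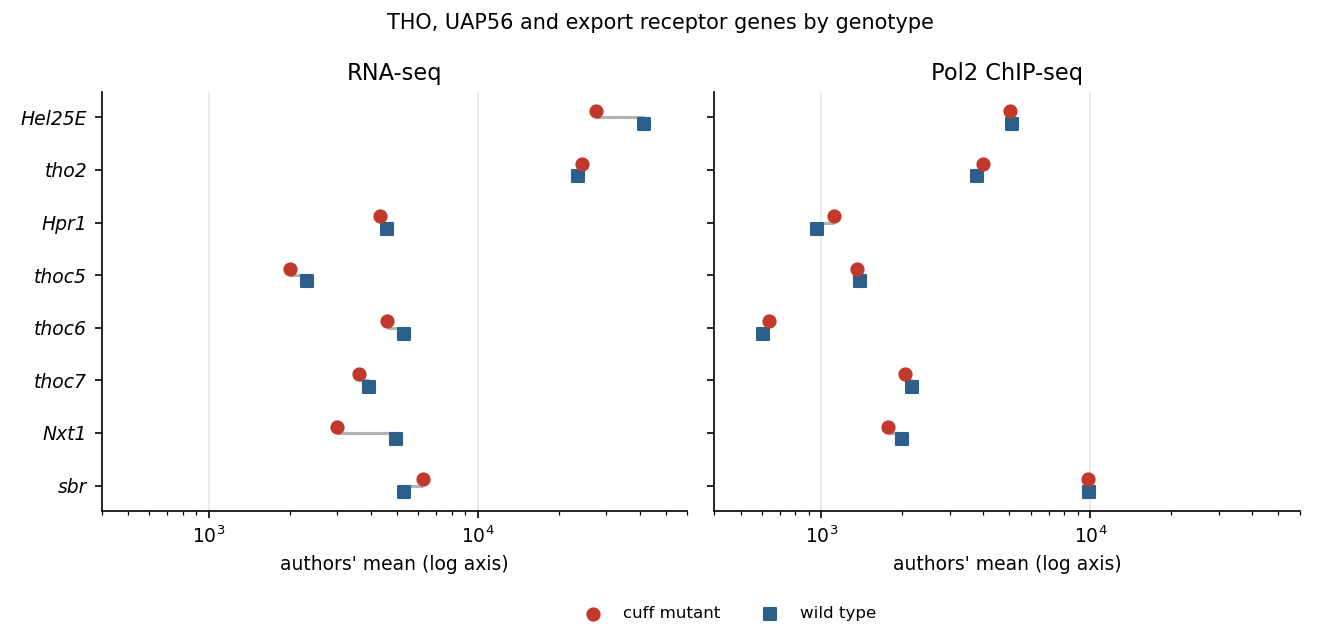
Authors' means of the 8 genes (log axis, RNA-seq left and Pol2 ChIP-seq right), with circles for cuff mutant and squares for wild-type ovaries. The gap between circle and square is widest for Hel25E and Nxt1 in RNA, and the Pol2 symbols of each gene lie closer together than those; each symbol is 1 merged value, with no error bar available.

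Hel25E had the highest RNA level of the 8 in both genotypes, also when divided by gene length. Its RNA had an authors' mean of 27457 in mutant ovaries, against 41393 in wild-type ovaries. The mutant value was lower by a ratio of 1.51, a log2 change of -0.59, with p = 0.3 in the authors' deposited table. Its Pol2 signal hardly moved, at 5015.4 in the mutant and 5113.5 in wild type, a log2 change of -0.03 with p = 0.9 in the authors' deposited table. No other annotated gene overlaps Hel25E in the Release 6 gene table, so its values are not shared with a neighbour there.

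tho2 and Hpr1 encode the large subunits that form the core of THO. The tho2 transcript had an authors' mean of 24400 in the mutant and 23684 in wild type, with p = 1 in the authors' deposited table. This was the smallest RNA difference of the 8, a log2 change of 0.04. Hpr1, known as THOC1 in other animals, had RNA means of 4335.2 in the mutant and 4590.4 in wild type (log2 change -0.08, p = 1 in the authors' deposited table). For Pol2, tho2 had means of 3997.7 in the mutant and 3788.0 in wild type, and Hpr1 had 1111.1 in the mutant and 961.4 in wild type. The Hpr1 difference, a log2 change of 0.21, was the largest of the 8 in Pol2, and its p was 0.8 in the authors' deposited table. Hpr1 overlaps CG42675 in the Release 6 table. That neighbour had Pol2 means of 1442.3 in the mutant and 1126.8 in wild type and RNA means of only 16.4 and 19.1, so the Pol2 values of the pair may share reads.

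thoc5 and thoc7 encode coiled-coil subunits of THO that pair with each other. RNA of thoc5 averaged 2009 in the mutant and 2313.8 in wild type (log2 change -0.20, p = 0.9 in the authors' deposited table). RNA of thoc7 averaged 3610.3 in the mutant and 3942 in wild type (log2 change -0.13, p = 1 in the authors' deposited table). Both transcripts were thus lower in the mutant by mean, without passing. Their Pol2 means were close between genotypes, at 1358.8 in the mutant and 1392.9 in wild type for thoc5, and 2046.2 in the mutant and 2174.6 in wild type for thoc7. thoc5 overlaps CG16787, whose RNA means were 3869.6 in the mutant and 6122.1 in wild type, with p = 0.1 in the authors' deposited table.

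thoc6 encodes a subunit built of WD repeats. Its RNA averaged 4592.3 in the mutant and 5303.3 in wild type, a log2 change of -0.21 with p = 0.7 in the authors' deposited table. Its Pol2 signal, 640.1 in the mutant and 606.1 in wild type, differed little between genotypes (p = 0.9 in the authors' deposited table). The gene overlaps the esterase genes Est-6 and Est-P. RNA of Est-6 fell to 185.1 in the mutant, against 561.2 in wild type (p = 0.02 in the authors' deposited table), while its Pol2 means were 479.6 in the mutant and 264.3 in wild type (p = 0.3 in the authors' deposited table). No source used here says whether counting assigned reads by strand, so the values of thoc5, thoc6, Hpr1, Nxt1 and sbr, the 5 of 8 with an overlapping gene, may include reads of that gene.

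Summed over the 5 THO subunits, RNA came to 38947 in the mutant and 39834 in wild type, and Pol2 to 9153.9 in the mutant and 8923 in wild type. The median log2 change over the 5 was -0.13 in RNA and 0.08 in Pol2, beside 0.02 and 0.08 over all genes of each table. Without division by length, the Hel25E RNA mean was therefore 0.705 of the summed THO means in the mutant and 1.04 in wild type. In Pol2 the same ratio was 0.548 in the mutant and 0.573 in wild type. Relative to the mean THO subunit per kb of gene, Hel25E RNA stood at 4.34 in the mutant and 6.14 in wild type. Its Pol2 signal stood at 2.28 in the mutant and 2.30 in wild type on that scale. A ratio of merged means has no replicate check, and the Hel25E value that moves it did not pass.

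The export receptor genes lay at opposite ends of the RNA changes. Nxt1 had an authors' mean of 2998.7 in the mutant and 4992.7 in wild type, lower in the mutant by a ratio of 1.66 (log2 change -0.74, p = 0.1 in the authors' deposited table). sbr had 6281.6 in the mutant and 5315.0 in wild type, the highest ratio of the 8 (log2 change 0.24, p = 0.8 in the authors' deposited table). Neither passed, and in Pol2 both differed less. Nxt1 had Pol2 means of 1760 in the mutant and 1989.7 in wild type (p = 0.7 in the authors' deposited table), and sbr had 9823.6 in the mutant and 9859.5 in wild type (p = 1 in the authors' deposited table). The ratio of the Nxt1 RNA mean to the sbr RNA mean was 0.477 in the mutant and 0.939 in wild type. Per kb of gene, introns included, this ratio was 10.5 in the mutant and 20.6 in wild type. The difference between genotypes was not tested. Nxt1 overlaps CG5543, which had the opposite RNA order, 2856.5 in the mutant and 2280.7 in wild type (p = 0.7 in the authors' deposited table). sbr overlaps CG15210, CG15209 and CG32669, whose RNA means lay between 135.1 and 963.2 over both genotypes.

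**Figure D2:**
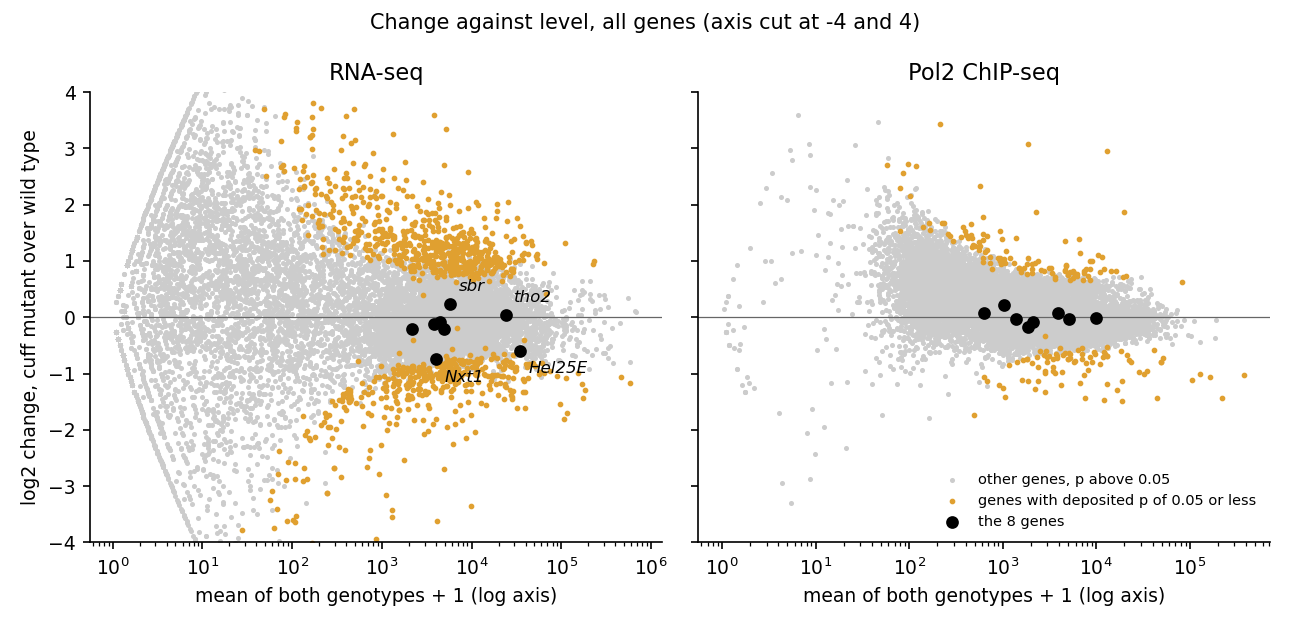
Log2 change of cuff mutant over wild type (y axis, without the most extreme genes) against the mean of both genotypes plus 1 (log x axis) for all genes in RNA-seq (left) and Pol2 ChIP-seq (right). The 8 genes (black) lie among the genes that did not pass (grey), with Nxt1 and Hel25E inside the lower part of that band in RNA. Genes with a deposited p of 0.05 or less are orange.

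How large a difference could have passed was read from the 200 genes nearest to each of the 8 in level. Around Nxt1 in RNA only 4 falls passed, the smallest of them 2.02-fold, and the largest that did not pass was 1.83-fold. The Nxt1 ratio of 1.66 thus lay below each of these 4 passing falls. Around Hel25E the smallest passing fall was 1.33-fold and the largest non-passing fall 1.88-fold, so at the Hel25E ratio of 1.51 other genes fell on both sides of the threshold. Across the 8 levels the smallest passing fall in RNA lay between 1.32-fold and 2.06-fold, and the smallest passing rise between 1.56-fold and 1.97-fold. In Pol2 the smallest passing fall lay between 1.53-fold and 2.39-fold where there was one, with at most 5 passing falls at any level. Around thoc7 none of the 200 nearest Pol2 genes passed, and their differences reached 1.68-fold upward and 1.53-fold downward. The p-values do not show that the genes stayed the same.

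Levels of different genes can be compared only per length. Per kb of gene, introns included, Hel25E RNA had 9186 in the mutant and 13848 in wild type, and Nxt1 followed with 4585 in the mutant and 7634 in wild type. Then came thoc7 (3432 in the mutant, 3747 in wild type), tho2 (3113 in the mutant, 3022 in wild type), Hpr1 (1638 in the mutant, 1734 in wild type) and thoc6 (1534 in the mutant, 1772 in wild type). thoc5 had 867 in the mutant and 999 in wild type, and sbr was lowest with 438 in the mutant and 371 in wild type. The order of RNA per kb was the same in both genotypes except that thoc6 and Hpr1 changed places. The THO subunits spanned a 3.96-fold range of RNA per kb in the mutant and a 3.75-fold range in wild type, although they act in 1 complex. sbr is 14.3 kb long against 0.654 kb for Nxt1, and a gene length that counts introns understates the RNA level of a long gene. With no value per library, it cannot be said which neighbours in this order differ beyond their spread.

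Pol2 per kb had another order. Nxt1 was highest with 2691 in the mutant and 3042 in wild type, followed by thoc7 (1945 in the mutant, 2067 in wild type) and Hel25E (1678 in the mutant, 1711 in wild type). sbr, thoc5, tho2 and Hpr1 lay between 363 and 688 over both genotypes, near the median of 411 over all genes. thoc6 was lowest with 214 in the mutant and 203 in wild type.

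**Figure D3:**
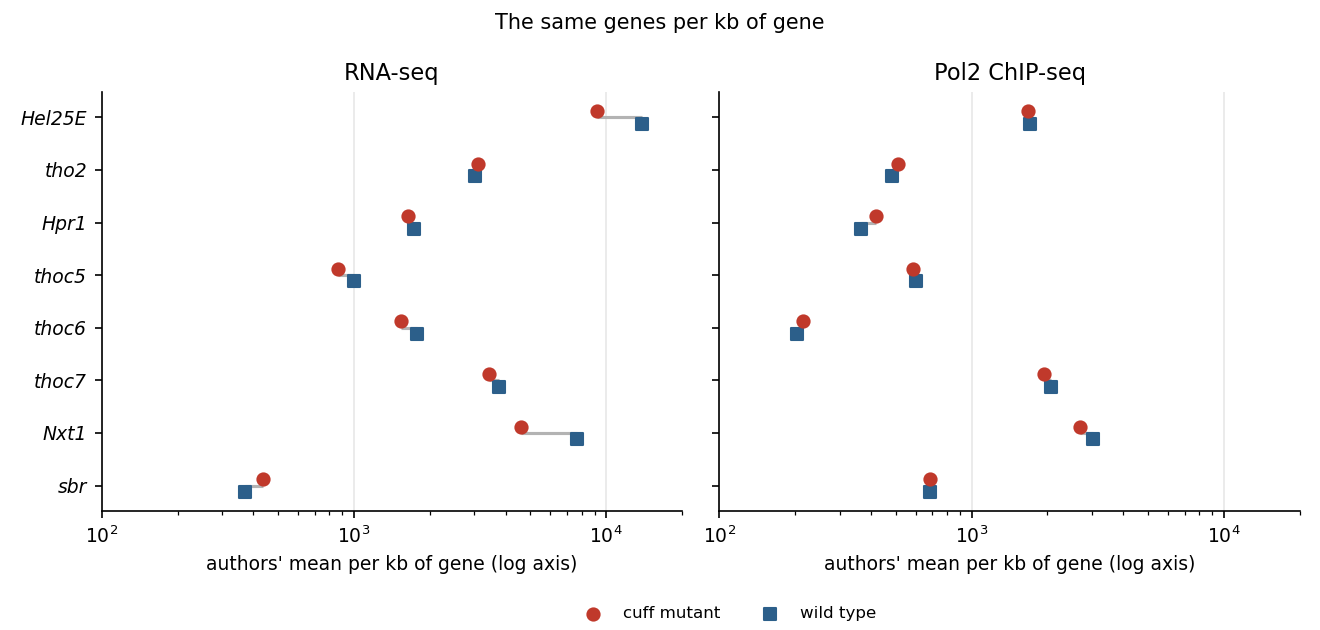
Authors' means of the 8 genes divided by gene length in kb (log axis), for RNA-seq (left) and Pol2 ChIP-seq (right), with circles for cuff mutant and squares for wild-type ovaries. Hel25E and Nxt1 have the most RNA per kb, Nxt1 and thoc7 the most Pol2 per kb, and thoc6 has the least Pol2 per kb; each symbol is 1 merged value.

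RNA and Pol2 means were also set side by side. The ratio of the thoc6 RNA mean to its Pol2 mean was 7.16 in the mutant and 8.74 in wild type, the highest of the 8 in both genotypes. thoc6 also had the lowest Pol2 signal of the 8. Its mean over both genotypes was 623.1, against a 90th percentile of 404 over the genes missing from the RNA table. The part of this low Pol2 signal in the ratio was not tested. The ratio was 5.47 in the mutant and 8.09 in wild type for Hel25E, and 6.1 in the mutant and 6.25 in wild type for tho2. For sbr it was 0.639 in the mutant and 0.539 in wild type, close to the median over the 12371 genes in both tables, 0.494 in the mutant and 0.443 in wild type. In the wild type the thoc6 ratio exceeded that of 95.7% of genes and the sbr ratio that of 52.2%. With introns included, sbr is 14.3 kb long and thoc6 2.99 kb. The part of gene length and introns in the order of these ratios was not tested, so they do not give RNA per polymerase. The log2 RNA change minus the log2 Pol2 change was -0.56 for both Hel25E and Nxt1, and between -0.29 and 0.25 for the other 6. A difference as low as that of Hel25E was found in 21.6% of genes, and it was not tested.

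By gene length the RNA differences of the 8 genes followed the order seen in other genes. The shortest gene, Nxt1, had the lowest ratio of mutant to wild type and the longest, sbr, the highest. Spearman's rho between length and log2 RNA change was 0.62 over these 8 genes, 0.59 over 63 entries for other export genes and 0.46 over 8504 entries of the RNA table with a mean of 50 or more. These entries, a few of which share a gene, come from the same libraries and are not independent. When each change was set against the median change of the 200 genes most alike in both level and length, the log2 value of Nxt1 was -0.21 in place of -0.74, and that of sbr was -0.21 in place of 0.24. Hel25E was at -0.50 in place of -0.59, the lowest of the 8 on that scale. In Pol2 rho was 0.67 over the 8 genes, 0.22 over 65 entries for other export genes and -0.06 over all genes with a mean of 50 or more.

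**Figure D4:**
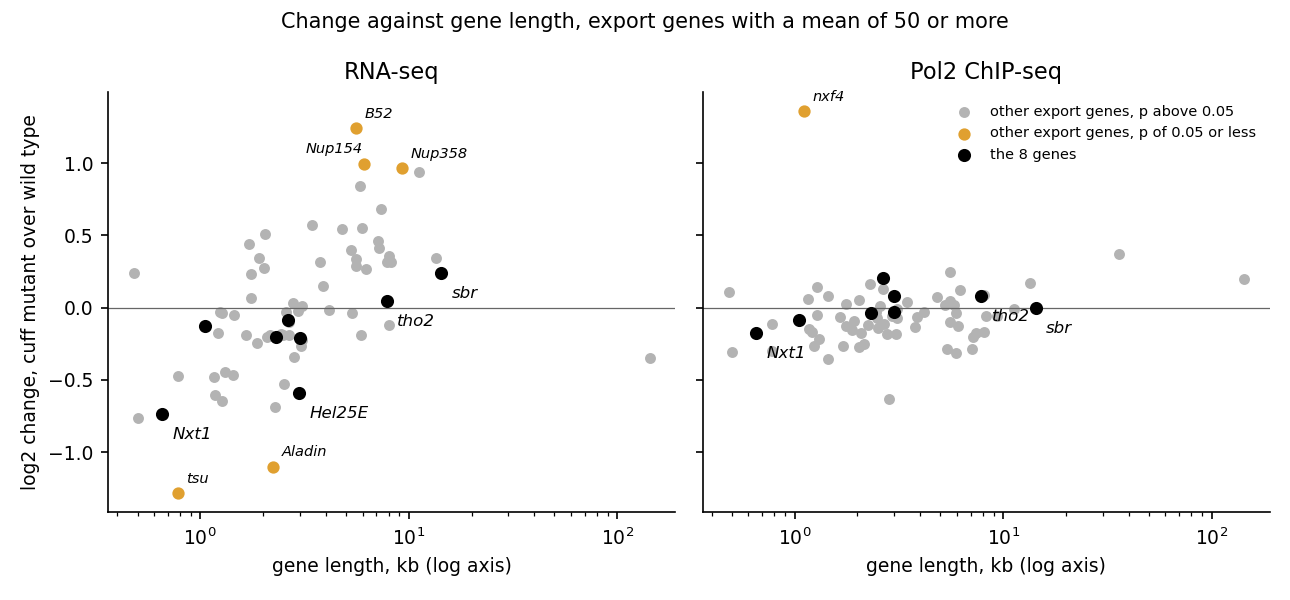
Log2 change of cuff mutant over wild type (y axis) against gene length in kb (log x axis) for the 8 genes (black) and other export genes with a mean of 50 or more, in RNA-seq (left) and Pol2 ChIP-seq (right). In RNA most short genes, such as Nxt1 and tsu, lie low and most long genes, such as sbr and Nup358, lie high, while in Pol2 nxf4 lies highest and Nup44A, at -0.63, lowest; orange marks a deposited p of 0.05 or less.

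The wider export pathway was described with 65 further genes, which fill 66 entries of each table because xmas is listed there as xmas-1 and xmas-2. In RNA 3 of the 66 rose and 2 fell, 61 did not pass, and the median log2 change was 0.00, beside 5.5% of all genes that rose and 3.73% that fell. After adjusting the p-values of the authors' deposited table once more over all genes, 0 of the 66 passed, beside 351 of all 12505 genes. In Pol2 1 rose and 0 fell, beside 0.812% and 0.652% of all genes, and the median log2 change was -0.06. That 1 gene was nxf4, and none was left after the further adjustment, which 49 of all 13797 genes passed. The 3 genes that rose in RNA were 5.58 to 9.32 kb long and the 2 that fell 0.78 and 2.24 kb.

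Among TREX partners outside the 8 genes, Ref1, the fly Aly adaptor, had RNA means of 27481 in the mutant and 31341 in wild type (p = 0.8 in the authors' deposited table). tex, the fly THOC3 subunit, had 1941 in the mutant and 2953.3 in wild type, a log2 change of -0.61 with p = 0.2 in the authors' deposited table. That placed tex below the 5 other THO subunits by ratio, without passing. Its Pol2 means were 777 in the mutant and 859 in wild type.

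The variant receptors of the germline also did not pass in RNA. Nxf3, the receptor of piRNA precursors, had RNA means of 41625 in the mutant and 33367 in wild type (p = 0.6 in the authors' deposited table). Its partner Bootlegger, listed as CG13741, had 16804 in the mutant and 19159 in wild type (p = 0.9 in the authors' deposited table). nxf2, which acts with Panoramix in silencing by Piwi, had 13910 in the mutant and 9356.9 in wild type (p = 0.2 in the authors' deposited table). The fourth family member, nxf4, was listed at 0.4 in the mutant and at 0 in wild type in RNA. Its Pol2 signal rose to 418.2 in the mutant, against 162.2 in wild type (p = 0.03 in the authors' deposited table). Its mean over both genotypes was 290.2, against a median of 165 and a 90th percentile of 404 over the 1426 genes missing from the RNA table.

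Of the exon junction complex, which marks spliced RNA, tsu (Y14) fell in RNA to 15576 in the mutant, against 37976 in wild type, a 2.44-fold difference with p = 0.006 in the authors' deposited table. Its partner mago, named after its values were seen, had 19649 in the mutant and 27382 in wild type without passing (p = 0.5 in the authors' deposited table). Of the 6 entries for this complex, 3 were higher and 3 lower in the mutant by RNA mean, and only tsu passed. tsu had Pol2 means of 2208.3 in the mutant and 2389.4 in wild type, and it overlaps Mys45A, which had RNA means of 8822.3 in the mutant and 6085.3 in wild type. Among 5 SR proteins, splicing factors that can also act as export adaptors, B52 rose 2.37-fold (7100.4 in the mutant, 2997.4 in wild type; p = 0.006 in the authors' deposited table). The other 4 did not pass, with log2 changes from -0.26 to 0.23.

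Of 30 entries for nuclear pore proteins and factors that act at the pore, 2 rose and 1 fell in RNA, a share near the 9.24% of all genes that passed. Nup154, a scaffold nucleoporin, rose to 12862 in the mutant, against 6447.3 in wild type (1.99-fold, p = 0.007 in the authors' deposited table). Nup358, a component of the cytoplasmic filaments, rose to 84211 in the mutant, against 43111 in wild type (1.95-fold, p = 0.03 in the authors' deposited table). Aladin, listed as CG16892, fell to 4167.2 in the mutant, against 8945.3 in wild type (2.15-fold, p = 0.004 in the authors' deposited table). None of these 3 passed in Pol2. Nup154 overlaps Art8, with RNA means of 3581.4 in the mutant and 3566.2 in wild type. Aladin overlaps a snoRNA gene and c11.1, which had the opposite RNA order, 9652.7 in the mutant and 7202 in wild type. The lowest Pol2 change in the list was that of the nucleoporin gene Nup44A, with 2901.7 in the mutant and 4498.1 in wild type, which did not pass (p = 0.07 in the authors' deposited table). No entry passed in RNA among 5 of TREX-2, 6 of cap and tail binding proteins, or 6 of Ran and the exportins.

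**Figure D5:**
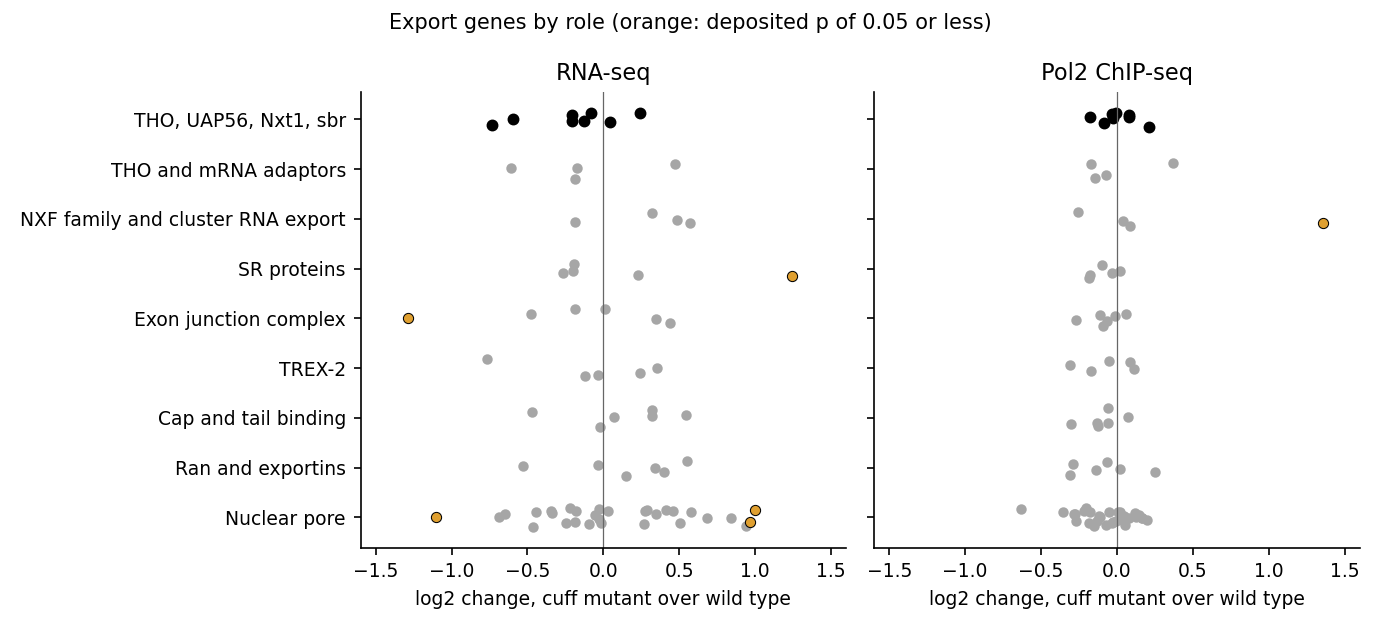
Log2 change of cuff mutant over wild type (x axis) for the 8 genes (top row, black) and 66 other export entries by role, in RNA-seq (left) and Pol2 ChIP-seq (right); vertical scatter within a row has no meaning. Orange points passed the deposited p of 0.05: tsu and Aladin on the left and B52, Nup154 and Nup358 on the right of 0 in RNA, and nxf4 in Pol2.

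The direct partners at piRNA clusters did not pass in either assay. RNA means were 1105 in the mutant and 951 in wild type for cuff, 3594.5 in the mutant and 2920.9 in wild type for rhi, and 13882 in the mutant and 11606 in wild type for del. moon, listed as CG12721, which brings basal transcription factors to the clusters, had 3771 in the mutant and 4742.5 in wild type. Without a named allele, the cuff transcript does not check the genotype.

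For each of the 8 genes the most similar other gene was found over the 4 values available, RNA and Pol2 in both genotypes, as the smallest Euclidean distance between log2 values among 12371 genes. For Hel25E this was CG8223 (Nasp), at a distance of 0.19, with RNA means of 30491 in the mutant and 40234 in wild type. For Nxt1 it was CG5021, at 0.154, with RNA means of 2962.1 in the mutant and 4574.5 in wild type. For tho2 it was syd (0.176), for Hpr1 Sirt7 (0.162), for thoc5 CG12079 (0.124), for thoc6 CG13890 (0.287), for thoc7 slx1 (0.0467) and for sbr Galphao (0.128). With 4 values, likeness reflects level more than response.

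Some markers of ovary cell types differed between the genotypes in RNA, where 5.5% of all genes rose and 3.73% fell. In the list for the germline, where some of the 8 genes serve the piRNA pathway, 1 of 8 markers fell and 0 rose. The summed means of these markers were 503098 in the mutant and 587932 in wild type. In the follicle cell list 7 of 8 rose, with sums of 645171 in the mutant and 329458 in wild type, and in the muscle sheath list 4 of 6 rose, with 44663 in the mutant and 14108 in wild type. Of 3 hemocyte, 2 fat body, 6 testis and 2 gut markers, 1, 1 and 0 rose in the first 3 lists and both gut markers fell. Some of these were low in RNA, with a lowest mean of 7.55 in the fat body, 1.55 in the testis and 23.6 in the gut list. In Pol2, where 1.46% of all genes passed, only 1 marker of all these lists did. It was a gain in the muscle sheath list, whose sums were 32873 in the mutant and 21229 in wild type. The follicle cell sums in Pol2 were 129242 in the mutant and 118887 in wild type, and the hemocyte sums 8908.6 in the mutant and 6097.2 in wild type. In whole ovaries fewer cells of a type and less RNA per cell cannot be told apart. The part of cell type makeup in the lower Hel25E and Nxt1 means was not tested.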

How the data were processed

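Ribosome-depleted RNA and Pol2 ChIP DNA of ovaries were sequenced, per the labels' protocols. Tools named per the submitters' processing notes include TopHat2 2.0.8, Bowtie2 2.0.0 and DESeq 1.16.0, with genome build dm3; which tool made which file, and the annotation, are not given in the sources used here. Per the file headers, each gene table is DESeq output with dispersions from the parametric fit alone. The deposited genotype values are a signal never below 0, taken here as size-factor-scaled counts averaged over the 3 libraries, which the headers do not state. Their totals were 85598452 (mutant) and 89336038 (wild type) in RNA and 50036639 (mutant) and 51692649 (wild type) in Pol2, which is not depth per library; that is unknown. The deposited log2 fold change runs mutant over wild type and was used only to check direction. The deposited p-value has 1 significant digit, and no header says whether it was adjusted; 69.3% of RNA and 80% of Pol2 values were 0.5 or more. Replicates were separate dissections, per the labels' protocols.

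Computed here with Python 3.11.15, pandas 2.3.3 and scipy 1.17.1: log2 of (mutant + 1) over (wild type + 1), which understates changes of low genes; ratios of means; values per kb; and counts of genes with p of 0.05 or less. Lengths, current symbols and overlaps come from the RefSeq gene table of assembly Release 6, which gave a length for 12356 of 12505 RNA and 13638 of 13797 Pol2 genes; it is not the build of the files. The scripts were tested on simulated data. All 8 genes were named, and of the other export genes those passing p, Ref1, tex, nxf2, Nxf3 and Bootlegger, and the 2 most changed per table; mago was named besides. Members and lists were chosen with earlier results of these data known. Count models, limma and other tests on replicates could not be run on merged values. The Cuff peak list, in dm3 positions, was not used.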

Additional observations from a re-analysis of the deposited data

How the results depend on the processing

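Settings were changed one at a time, and each of the 146 values obtained is a description of merged means. No paired analysis was possible because the tables hold 1 merged value per genotype, so the replicate block, leaving out libraries, edgeR and DESeq2 were not run. With p of 0.1, 1 of the 8 genes passed in RNA (Nxt1), and 9 of 66 other export entries in RNA and 2 in Pol2, beside 15.4% and 3.07% of all genes. Adjusting p once more left 0 other export genes in RNA and 0 in Pol2, beside 351 and 49 of all genes. A 2-fold minimum left 3 in RNA, beside 859 of all 12505 genes. With p of 0.01, 0 were left in Pol2, beside 0.79% of all genes. The median RNA change of the 8 was 0.0188 in place of -0.17 when centred on level; the cause was not tested. The Pol2 median of -0.02 changed sign in 3 settings and lay between -0.10 and 0.07.

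Of 112 values for single genes, 21 changed sign, and 0 of the 8 genes had passed to begin with. Centred on all genes, Pol2 of tho2 was -0.0063 and of thoc6 -0.0054. Scaled to the same total, Pol2 of Hel25E was 0.019, thoc5 0.0112 and sbr 0.0417. Centred on level, RNA of thoc5 was 0.0299, thoc7 0.00777 and Hpr1 0.0547, and Pol2 of Hel25E was 0.0535, thoc6 -0.23 and sbr 0.089. Centred on level and length, RNA of tho2 was -0.0843, thoc7 0.25, Hpr1 0.0588 and sbr -0.21, and Pol2 of Hel25E was 0.15, thoc5 0.0056, thoc6 -0.32, thoc7 0.13, Nxt1 0.0632 and sbr 0.0565. RNA of Hel25E and Nxt1 stayed below 0 under each of these settings.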
